A study of Homo sapiens with 4 samples.

Results

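The miRNAs described here come from the HOX gene clusters. They are hsa-miR-10a, hsa-miR-10b, hsa-miR-196a, hsa-miR-196b, hsa-miR-615-3p and hsa-miR-615-5p, 6 of the 1733 miRNAs counted in each library. They were picked by name and by the place of their genes, at a time when their levels in the lines were already known. Their levels and the differences between the lines are therefore given as a description, with no test. The small RNA came from Hep3B and Huh7, human liver cancer lines (HCC cells), and from stem-like lines cultured from them (HCSCs), of which Hep3B-C derives from Hep3B and Huh7-C from Huh7. No treatment, genotype or time point is given in the labels for any of these cells. Each of the 4 populations was 1 library of 1 cell line, so no difference has a replicate check, and a difference between a stem-like line and its parent cannot be told apart from a difference between cultures or preparations. The intervals below cover counting error only.

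HOX genes encode homeodomain transcription factors that mark position along the body axis during development, and their pattern tends to persist in adult cells. They lie in 4 clusters, A to D, and a few miRNA genes sit between or inside the HOX genes and are often active together with their neighbours. MiR-196 is best known for repressing HOX genes, HOXB8 foremost, and miR-10 for its position beside the HOX4 genes. MiR-10b has also been linked to invasion of tumor cells. The 2 arms of a miRNA hairpin are both cut out by Dicer, and one of them, the guide, is usually kept while the other (named with a star) is mostly lost.

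The 6 miRNAs come from 6 hairpins in all 4 clusters (positions from the RefSeq table for GRCh38.p14, which GENCODE release 29 gives identically). In cluster A, MIR196B lies at chr7:27169480-27169563 on the minus strand, in an exon of the HOXA9 gene model and 1027 bases from HOXA10. Cluster B holds MIR10A (chr17:48579838-48579947, minus strand), in an exon of the HOXB4 gene model and an intron of HOXB3. It also holds MIR196A1 (chr17:48632490-48632559, minus strand), in an intron of HOXB7 and 6133 bases from HOXB9. In cluster C, MIR196A2 (chr12:53991738-53991847, plus strand) lies in an intron of HOXC6, 1458 bases from HOXC10 and 3047 bases from HOXC9. MIR615 (chr12:54033950-54034045, plus strand) lies in introns of HOXC5 and HOXC4. Cluster D holds MIR10B (chr2:176150303-176150412, plus strand), in an intron of HOXD3 and 809 bases from HOXD4.

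Mature sequences were found in RefSeq for 5 of the 6 miRNAs, and are shown from 5′ to 3′ because the counts of near-identical miRNAs have to be read with them in view. Capitals mark the seed, bases 2 to 8, which pairs with targets. The sequence of hsa-miR-10b was not matched.
hsa-miR-10a: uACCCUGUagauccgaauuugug
hsa-miR-196a: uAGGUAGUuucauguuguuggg
hsa-miR-196b: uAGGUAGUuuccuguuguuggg
hsa-miR-615-3p: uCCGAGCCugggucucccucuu
hsa-miR-615-5p: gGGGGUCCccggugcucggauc
Hsa-miR-196a and hsa-miR-196b share their seed and differ by a single base, A12C, counted from the 5′ end with the base of hsa-miR-196a first. No other miRNA in the RefSeq table used had the seed of any of these 5. Hsa-miR-10b was missing from that table, so its seed was not compared with that of hsa-miR-10a. The sequence of hsa-miR-196a is made by both MIR196A1 and MIR196A2, so its reads do not say which of clusters B and C they came from. The opposite arms of these hairpins do differ, and are shown for that reason.
hsa-miR-196a* (MIR196A2): cGGCAACAagaaacugccugag
hsa-miR-196a-1-3p (MIR196A1): cAACAACAuuaaaccacccga
Of these arms, hsa-miR-196a*, matched by name to the RefSeq entry hsa-miR-196a-3p, is counted in the tables and hsa-miR-196a-1-3p is not among their names.

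Library totals ranged from 1739278 miRNA counts for Hep3B to 5741567 for Huh7. MiRNAs took up 10.4% of all reads for Hep3B and 35.2% for Hep3B-C, against 54.1% for Huh7 and 37.8% for Huh7-C. Levels are given as TPM, the count per 1000000 of all reads in that library, and as a share of miRNA counts, since these scales differ most for Hep3B. A level of 3 counts, used in place of a count of 0, equals between 0.179 and 0.282 TPM. The liver list fixed for checking the cells (hsa-miR-122, hsa-miR-192, hsa-miR-194 and hsa-miR-885-5p) held 10.1% to 21.4% of miRNA counts, with hsa-miR-885-5p at 0 in Huh7-C. Its members did not differ alike between the lines. By total reads, hsa-miR-122 had a log2 fold-change of 10.93 for Huh7 over Hep3B but 0.48 for Huh7-C over Hep3B-C. In the same order, hsa-miR-192 had 2.64 and 0.81, hsa-miR-194 had 3.31 and 1.59, and hsa-miR-885-5p had -5.88 and -5.20. All 5 pluripotency miRNAs of the miR-302 cluster were at 0 in all 4 libraries. Of the lists for other cell types, muscle and endothelium each held at most 0.0504% of miRNA counts. The 5 blood miRNAs summed to 796 counts in Huh7, with hsa-miR-144 and hsa-miR-223 at 0, against 8 in Hep3B, 1 in Hep3B-C and 5 in Huh7-C. Hsa-miR-124 of the 2 neuronal miRNAs was at 0 throughout, while the pair summed to 154 and 844 counts in Hep3B and Hep3B-C and to 9765 and 11349 counts in Huh7 and Huh7-C, so hsa-miR-9 differed between the lines in the same direction as most miRNAs below. The 4 mesenchymal miRNAs as a sum went the other way, with 592 and 1775 counts in the Hep3B libraries against 106 and 28 in the Huh7 libraries. Among them, hsa-miR-214 was at 0 in Hep3B and Hep3B-C but not in Huh7 and Huh7-C. Hsa-miR-145 was at 0 in Hep3B, Huh7 and Huh7-C. The part of other cell types in the results was not tested.

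Hsa-miR-196a was the most abundant of the 6 miRNAs in Huh7 and Huh7-C and at few counts in Hep3B and Hep3B-C. Huh7 gave 35807 counts, or 3371 TPM, and Huh7-C gave 39922 counts, or 3726 TPM. Only 10 counts, or 0.596 TPM, came from Hep3B and 17 counts, or 1.10 TPM, from Hep3B-C. It ranked 15th among the 712 miRNAs with at least 1 count in Huh7 and 14th among 664 in Huh7-C. In Hep3B it ranked 348th among 674 miRNAs. The log2 fold-change of Huh7 over Hep3B was 12.47 (95% exact binomial interval 11.59 to 13.53), and that of Huh7-C over Hep3B-C was 11.73 (interval 11.05 to 12.50). Scaled to total miRNA counts, the values were 10.08 and 11.62, so the libraries of the lines stood far apart on either scale.

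Its relative hsa-miR-196b, from cluster A, was abundant in every library. Hep3B gave 3169 counts, or 189 TPM, and Hep3B-C 8544 counts, or 553 TPM. Huh7 gave 3841 counts, or 362 TPM, and Huh7-C 6310 counts, or 589 TPM. In order of TPM the libraries ran Hep3B, Huh7, Hep3B-C and Huh7-C, and no neighbours in this order had overlapping counting intervals. As a share of miRNA counts the order was different, with 0.182% in Hep3B, 0.157% in Hep3B-C, 0.156% in Huh7-C and 0.0669% in Huh7, and here the intervals of Hep3B-C and Huh7-C overlapped. The log2 fold-change of Huh7 over Hep3B was 0.94 by total reads and -1.45 by miRNA counts, so its direction turned with the scale. That of Huh7-C over Hep3B-C was 0.09 (interval 0.04 to 0.14) and -0.01 on these scales. Hsa-miR-196b was thus the member whose levels in the HCSCs of both lines lay closest together.

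**Figure D1:**
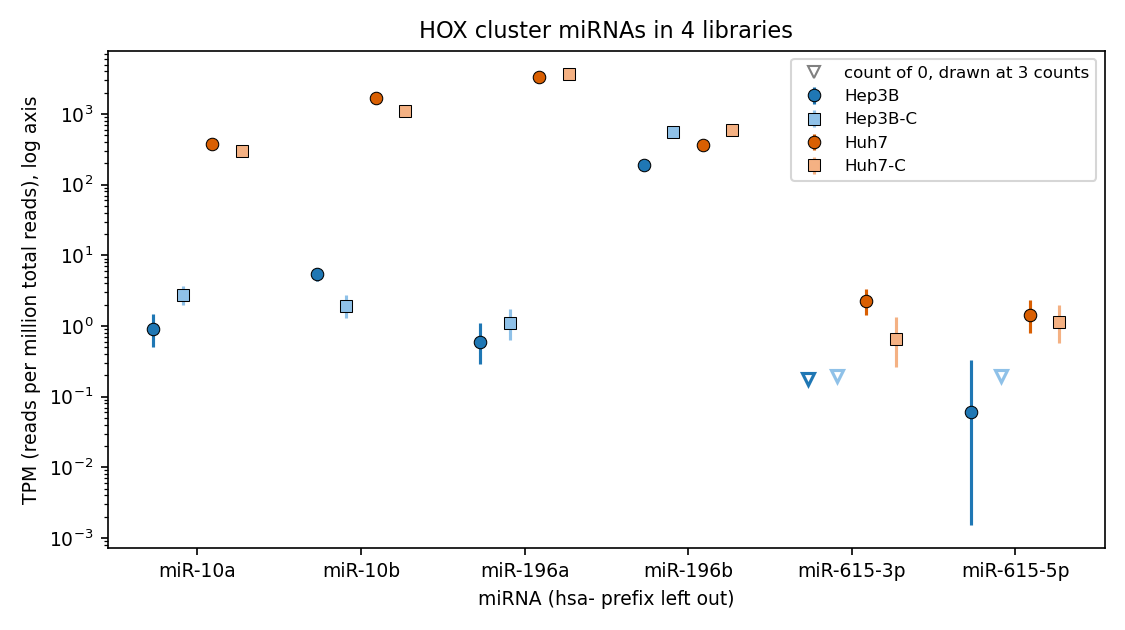
Level of each of the 6 miRNAs in TPM (log axis) in the 4 libraries, with 95% exact Poisson intervals of the counts, 1 library per point, and open triangles at 3 counts for a count of 0. The orange Huh7 and Huh7-C points of hsa-miR-10a, hsa-miR-10b and hsa-miR-196a lie between 300.3 and 3726 TPM and the blue Hep3B and Hep3B-C points between 0.596 and 5.36 TPM, while all 4 points of hsa-miR-196b lie between 189 and 589 TPM.

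The miR-10 pair followed hsa-miR-196a. Hsa-miR-10b, from the HOXD cluster, gave 17763 counts for Huh7, or 1672 TPM, and 11705 for Huh7-C, or 1092 TPM. For Hep3B it gave 90 counts, or 5.36 TPM, and for Hep3B-C 30 counts, or 1.94 TPM. Huh7 over Hep3B had a log2 fold-change of 8.28 (interval 7.99 to 8.60), and Huh7-C over Hep3B-C one of 9.14 (interval 8.62 to 9.70). Hsa-miR-10a, from the HOXB cluster, gave 4053 counts for Huh7, or 382 TPM, and 3218 for Huh7-C, or 300.3 TPM. For Hep3B it gave 15 counts, or 0.894 TPM, and for Hep3B-C 42 counts, or 2.72 TPM. The corresponding log2 fold-changes were 8.74 (interval 8.01 to 9.58) and 6.79 (interval 6.35 to 7.26). Both miRNAs were high in the 2 Huh7 libraries and low in the 2 Hep3B libraries, and miRNA counts as library sizes left each log2 fold-change at 5.90 or above. Of its level in Huh7, Hep3B had 0.321% for hsa-miR-10b, 0.234% for hsa-miR-10a and 0.0177% for hsa-miR-196a, and of its level in Huh7-C, Hep3B-C had 0.178%, 0.906% and 0.0296%. Relatives of miR-10 by sequence outside the HOX clusters went both ways. Hsa-miR-99a differed between the lines in the opposite direction, with 361 and 1191 counts for Hep3B and Hep3B-C and 12 and 15 counts for Huh7 and Huh7-C. Hsa-miR-100 went the same way as miR-10, with corresponding log2 fold-changes of 3.29 and 3.89 by total reads and 0.91 and 3.78 by miRNA counts. Those of hsa-miR-99b were -0.18 and -1.38 by total reads and -2.57 and -1.49 by miRNA counts.

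The arms of MIR615, which lies inside HOXC5, were rare in all libraries. Hsa-miR-615-3p had 24 counts in Huh7, or 2.26 TPM, 7 in Huh7-C, or 0.653 TPM, and 0 in both Hep3B libraries. At 3 counts, which a count of 0 allows (the one-sided limit), its level would be 0.179 TPM in Hep3B and 0.194 TPM in Hep3B-C. Hsa-miR-615-5p had 15 counts in Huh7, or 1.41 TPM, and 12 in Huh7-C, or 1.12 TPM, with 1 count in Hep3B and 0 in Hep3B-C. Taking 0 as 3 counts of the library, the 3p arm was at least 12.6-fold higher in Huh7 than in Hep3B by total reads, at least 2.42-fold by miRNA counts, and at least 3.36-fold higher in Huh7-C than in Hep3B-C. The 5p arm was at least 5.76-fold higher in Huh7-C than in Hep3B-C, and with a single count in Hep3B its log2 fold-change in Huh7 had an interval from 1.87 to 9.96. Scaled to miRNA counts this interval reached from -0.52 to 7.58, so a difference in the 5p arm between the parental lines was not detectable on that scale.

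The share of all miRNAs that differed in this way gives the background for these counts. Between the parental lines, all 6 miRNAs had at least 10 counts in 1 library, and 5 of them were at least 2-fold higher in Huh7 (a log2 fold-change of at least 1), against 58.0% of the 476 miRNAs with that minimum. Between the HCSCs, 4 of 5 were at least 2-fold higher in Huh7-C, against 22.9% of 502 miRNAs. None of them was 2-fold lower, against 18.3% of miRNAs between the parental lines and 47.2% between the HCSCs. The members were chosen with their levels in the lines known, so nothing is read from these shares. The median log2 fold-change of all these miRNAs was 1.59 for Huh7 over Hep3B and -0.83 for Huh7-C over Hep3B-C by total reads. With total miRNA counts as library sizes, these medians were -0.79 and -0.94. Relative to the median on the scale of total reads, hsa-miR-196a stood 10.88 higher in Huh7 and 12.55 higher in Huh7-C, hsa-miR-10b 6.69 and 9.97, hsa-miR-10a 7.15 and 7.62, and hsa-miR-196b -0.65 and 0.92. The comparison of the HCSCs and that of the parental lines have no library in common, and for the 431 miRNAs that reached 10 counts in each of them their log2 fold-changes had a Pearson r of 0.819 and a Spearman rho of 0.81, across miRNAs of lines that share their origin.

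**Figure D2:**
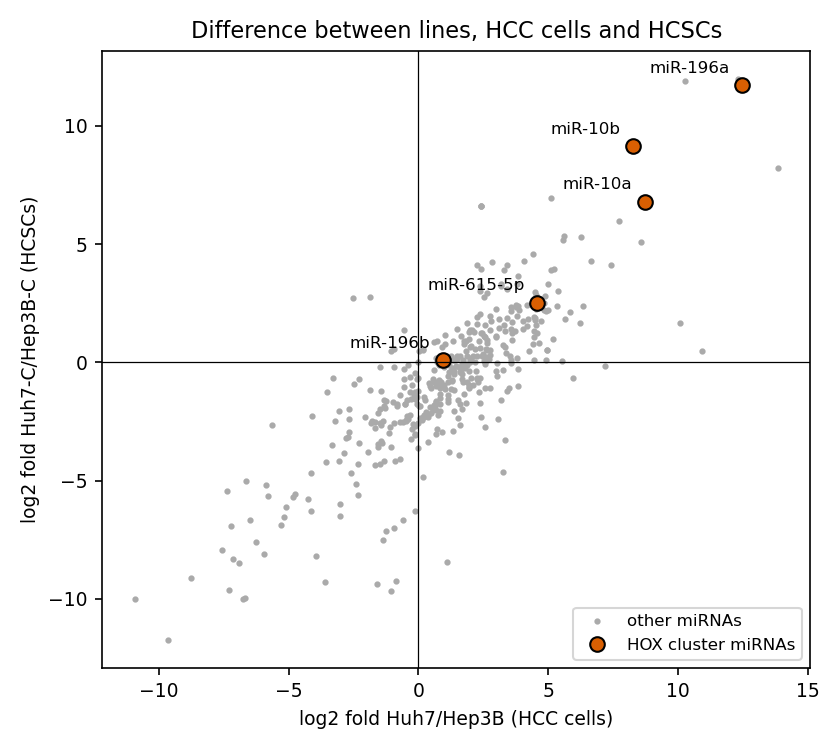
Log2 fold-change of TPM between the parental lines (x axis, Huh7 over Hep3B) and between their HCSCs (y axis, Huh7-C over Hep3B-C), 1 point per miRNA with at least 10 counts in each comparison, and a count of 0 set to 3 counts. Hsa-miR-196a, hsa-miR-10b and hsa-miR-10a lie at the upper right, with values from 6.79 to 12.47, and hsa-miR-196b lies near the origin of both axes at 0.94 and 0.09.

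The 3 nearest miRNAs of each member were taken by the distance between centred log2(TPM + 1) profiles over the 4 libraries. Some of them recurred among hsa-miR-10a, hsa-miR-10b and hsa-miR-196a only. Among 348 other miRNAs with at least 100 counts in all, hsa-miR-1299 lay nearest to hsa-miR-10a (distance 0.77), with 72 and 263 counts for Hep3B and its HCSCs and 9653 and 11373 for Huh7 and its HCSCs. Hsa-miR-224 was nearest to hsa-miR-10b (1.12), with 0, 1, 2326 and 2662 counts in the same order. Hsa-miR-452 was nearest to hsa-miR-196a (1.34), with 0, 3, 9769 and 8478 counts. Hsa-miR-34c-5p, a miRNA known as a p53 target, and hsa-miR-224 were among the 3 nearest of all of hsa-miR-10a, hsa-miR-10b and hsa-miR-196a. From hsa-miR-196a, however, both lay at a distance of 3.1. The nearest to hsa-miR-196b was hsa-miR-4741 (0.18), with at most 91 counts in a library, followed by hsa-miR-1303 and hsa-miR-3942-5p. For the MIR615 arms, whose levels were near the pseudocount, the nearest profiles were those of hsa-miR-590-3p, with 17, 17, 54 and 22 counts for Hep3B, its HCSCs, Huh7 and its HCSCs, and hsa-miR-769-5p, with 633, 598, 822 and 718.

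The question of the study was how HCSCs differ from the HCC cells they were derived from. Most of these miRNAs moved less between the cell states than between the lines. They were chosen with their levels in the lines known, so this is a description only. In the Hep3B pair, hsa-miR-10b had a log2 fold-change of -1.47 (interval -2.11 to -0.85), from 90 to 30 counts, while that of hsa-miR-196b was 1.55 (interval 1.49 to 1.61). Hsa-miR-10a had 1.61 (interval 0.73 to 2.56) and hsa-miR-196a 0.89 (interval -0.32 to 2.18), from 15 to 42 and from 10 to 17 counts. These directions depend on the library size, except for hsa-miR-10b. Scaled instead to total miRNA counts, the log2 fold-change was -3.23 for hsa-miR-10b, -0.21 for hsa-miR-196b, -0.16 for hsa-miR-10a and -0.88 for hsa-miR-196a. Of the 4 members with at least 10 counts in this pair, 2 were at least 2-fold higher in Hep3B-C, against 67.4% of 475 miRNAs, and 1 was at least 2-fold lower, against 5.05%. The median of all miRNAs in this pair was 1.46 by total reads and -0.31 by miRNA counts, and relative to either median hsa-miR-10b was 2.92 lower. On the scale of total reads, only 3.2% of these miRNAs had a lower log2 fold-change than hsa-miR-10b.

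In the Huh7 pair, hsa-miR-10b went from 17763 to 11705 counts, a log2 fold-change of -0.61 (interval -0.65 to -0.58), and hsa-miR-10a from 4053 to 3218 counts, with -0.35 (interval -0.41 to -0.28). Hsa-miR-196a had 0.14 (interval 0.12 to 0.17) and hsa-miR-196b 0.70 (interval 0.65 to 0.76). None of the 6 was at least 2-fold higher, against 7.42% of 431 miRNAs, and hsa-miR-615-3p alone was at least 2-fold lower, against 38.5%. Its log2 fold-change was -1.79 (interval -3.25 to -0.53), from 24 to 7 counts. The 5p arm of the same hairpin had 15 and 12 counts, and the ratio of the arms, 1.60 in Huh7 and 0.583 in Huh7-C, did not differ beyond counting error. By miRNA counts the values were -0.10 for hsa-miR-10b, 0.17 for hsa-miR-10a, 0.66 for hsa-miR-196a and 1.22 for hsa-miR-196b, so that hsa-miR-10a turned direction and hsa-miR-196b came past 2-fold. With DESeq2 size factors the interval of hsa-miR-10b was -0.035 to 0.033, and relative to the median of all miRNAs by total reads it stood 0.06 higher in Huh7-C. The median of all miRNAs was -0.67 by total reads and -0.15 by miRNA counts. Relative to either, hsa-miR-196b stood 1.37 higher in Huh7-C and hsa-miR-196a 0.81 higher.

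**Figure D3:**
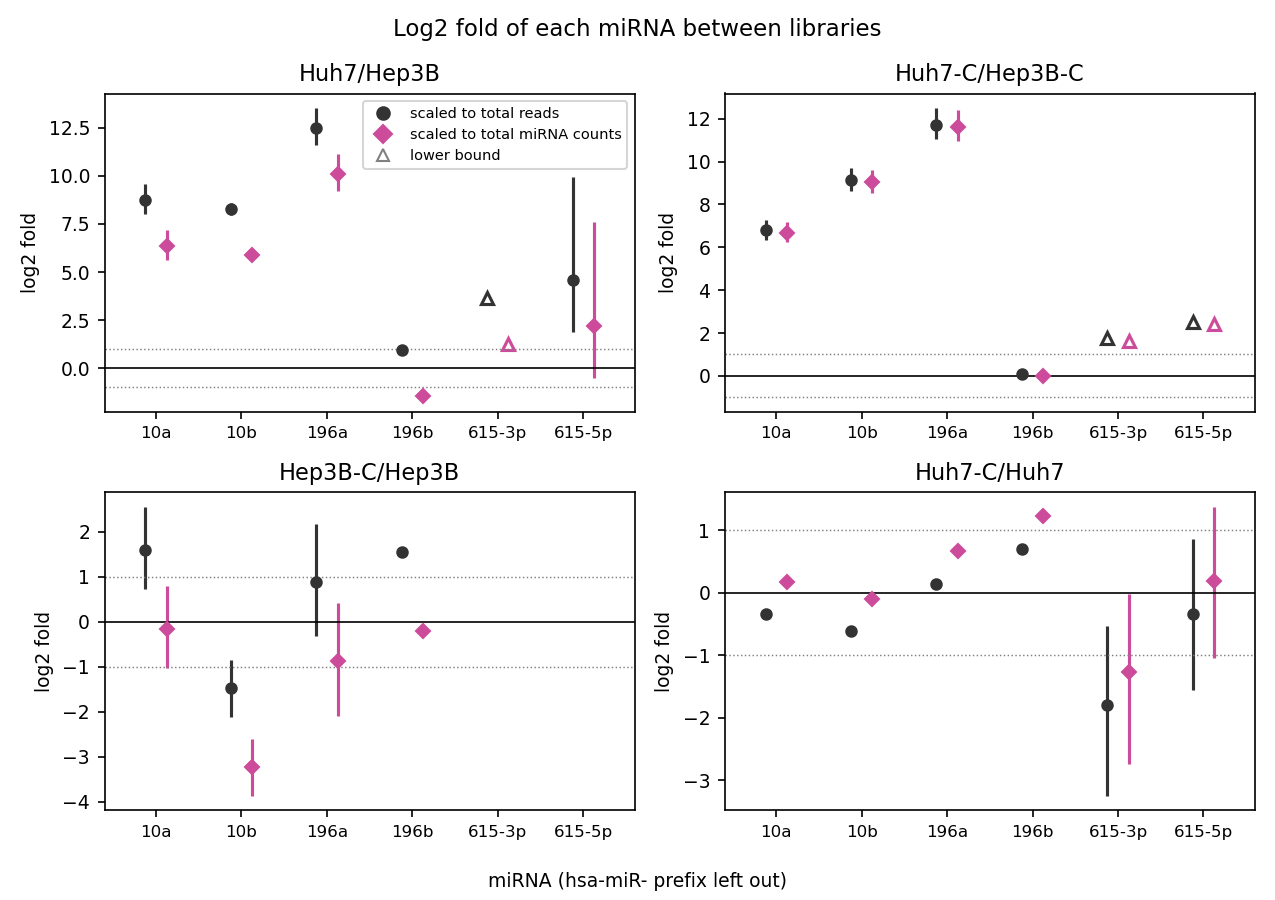
Log2 fold-change of each miRNA in 4 comparisons of libraries, scaled to total reads (black) or to total miRNA counts (pink), with 95% exact binomial intervals of the counts, dotted lines at 2-fold and a separate y axis for each panel. Between the lines (upper panels) hsa-miR-10a, hsa-miR-10b and hsa-miR-196a lie far above 0 on both scales, and between cell states (lower panels) only hsa-miR-10b in the Hep3B pair stays past 2-fold on both among the miR-10 and miR-196 members.

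Ratios of miRNAs within a library need no library size, and no scaling moves them. Hsa-miR-196b outnumbered hsa-miR-196a by 317 to 1 in Hep3B (interval 172 to 661) and by 503 to 1 in Hep3B-C (interval 314 to 863). In Huh7 the ratio was 0.107 (interval 0.104 to 0.111) and in Huh7-C 0.158 (interval 0.154 to 0.162). The seed shared by both miRNAs was thus carried almost wholly by hsa-miR-196b in the Hep3B lines and mostly by hsa-miR-196a in the Huh7 lines. From HCC cells to HCSCs the ratio changed by 0.56 on the log2 scale in the Huh7 pair (interval 0.50 to 0.62). In the Hep3B pair the change was 0.67, with an interval from -0.63 to 1.88 because of the few reads of hsa-miR-196a. Those few reads equalled 0.316% of hsa-miR-196b in Hep3B and 0.199% in Hep3B-C. The miRNAs differ by 1 base, how such reads were assigned is not given in the sources used here, and the origin of these reads was not tested.

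The ratio of hsa-miR-10b to hsa-miR-10a set Hep3B-C apart from the other libraries. It was 6.0 in Hep3B (interval 3.45 to 11.2), 4.38 in Huh7 (interval 4.24 to 4.54) and 3.64 in Huh7-C (interval 3.5 to 3.78), but 0.714 in Hep3B-C (interval 0.432 to 1.17). The change from HCC cells to HCSCs was -3.07 on the log2 scale in the Hep3B pair (interval -4.21 to -1.95), resting on 105 and 72 counts of the pair of miRNAs, and -0.27 in the Huh7 pair (interval -0.34 to -0.19). How reads of these related miRNAs were assigned is not given in the sources used here. The sequence of hsa-miR-10b was not matched, and the origin of these reads was not tested. The ratio of hsa-miR-10b to hsa-miR-196b was lower in the HCSCs of both pairs. This ratio was 0.0284 in Hep3B and 0.00351 in Hep3B-C, a change of -3.02 (interval -3.67 to -2.40), and 4.62 in Huh7 and 1.85 in Huh7-C, a change of -1.32 (interval -1.39 to -1.25). These changes exceed counting error and need no scale, with 1 library behind each value. The ratio joins members of different clusters, which were chosen with their levels known. In the Huh7 pair, by total reads, hsa-miR-10b stood 0.06 and hsa-miR-196b 1.37 above the median of all miRNAs. The lower ratio there does not by itself show a fall of hsa-miR-10b.

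**Figure D4:**
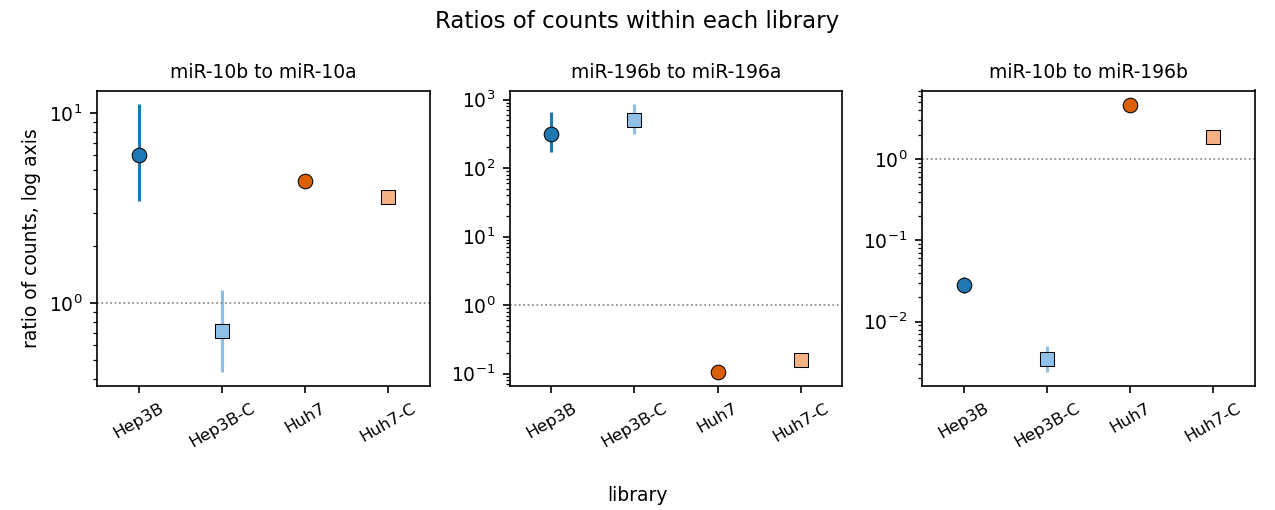
Ratio of the counts of 2 miRNAs within each of the 4 libraries (log axes), with 95% exact binomial intervals and a dotted line at equal counts. The ratio of hsa-miR-196b to hsa-miR-196a is 317 and 503 in the Hep3B libraries and 0.107 and 0.158 in the Huh7 libraries, and the ratio of hsa-miR-10b to hsa-miR-10a is below 1 in Hep3B-C alone, where its interval reaches 1.17.

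The star arms were found mainly in the Huh7 libraries. They come from the same hairpins as the members, so they are not independent of how the members were chosen. Hsa-miR-196a* had 90 counts in Huh7, 25 in Huh7-C, 0 in Hep3B and 1 in Hep3B-C, so that the arm cut from MIR196A2 in the HOXC cluster was read where hsa-miR-196a was high. With 0 taken as 3 counts, it was 47.4-fold higher in Huh7 than in Hep3B by total reads and 9.09-fold by miRNA counts. The lower 95% limits, with counting error in both libraries, were 5.24 and 2.86 on the log2 scale. Hsa-miR-10b* had 15 and 10 counts in Huh7 and Huh7-C and hsa-miR-10a* 5 and 3, with 0 of both in Hep3B and Hep3B-C. The guides were rare in Hep3B, where the star share could reach 44.6% for hsa-miR-196a*, 27.9% for hsa-miR-10a* and 4.18% for hsa-miR-10b*. Star counts of 0 there therefore do not show a lower star share. Hsa-miR-196b*, whose guide was abundant in all libraries, had 1 count in Huh7 and 0 elsewhere. While hsa-miR-196a was slightly higher in Huh7-C than in Huh7, its star arm went from 0.251% of the guide (interval 0.202% to 0.309%) to 0.0626% (interval 0.0405% to 0.0925%), a change of -2.00 on the log2 scale (interval -2.71 to -1.35). Over 57 pairs of star and guide arms with enough counts in the Huh7 pair, the median change was -0.48, and 6 pairs had a value below that of hsa-miR-196a*. The star arm of hsa-miR-10b did not move in this way, at 0.0844% and 0.0854% of its guide.

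Hsa-miR-99a, hsa-miR-99b and hsa-miR-100 were compared as kin of the miR-10 pair that lie outside the HOX clusters. Their common seed differs from that of hsa-miR-10a, although 20 bases of hsa-miR-100 occur in the same order in hsa-miR-10a.
hsa-miR-10a: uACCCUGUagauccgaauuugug
hsa-miR-100: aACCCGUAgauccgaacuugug
Hsa-miR-100 went from 1307 counts for Hep3B to 378 for its HCSCs, and from 8097 counts for Huh7 to 3876 for its HCSCs. The log2 fold-changes of hsa-miR-100 were -1.67 and -1.08 by total reads, and -3.43 and -0.56 by miRNA counts. Hsa-miR-10b was past 2-fold lower for Hep3B-C over Hep3B on both of these scales. For Huh7-C over Huh7 it had -0.10 by miRNA counts, and its interval with DESeq2 size factors (-0.035 to 0.033) held 0. Hsa-miR-99a went from 361 counts for Hep3B to 1191 for its HCSCs, which is 1.84 by total reads and 0.08 by miRNA counts on the log2 scale. Hsa-miR-99b, the most abundant of the kin in each library, had 0.22 for Hep3B-C over Hep3B and -0.98 for Huh7-C over Huh7 by total reads, and -1.54 and -0.46 by miRNA counts.

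Both lines were also fitted together, with 2 libraries per cell state and the parental line as a block, over 443 miRNAs that reached 10 counts in 2 or more libraries. EdgeR's quasi-likelihood test called 0 miRNAs (0.0%) higher and 0 (0.0%) lower in HCSCs at an adjusted p of 0.05, with 31 miRNAs at an unadjusted p under that value. DESeq2 called 4 higher and 1 lower, none of them a member. Of the 5 members tested, hsa-miR-10b had a log2 fold-change of -1.32 ± 0.87 (SE, 2 libraries per state, adjusted p = 0.653, edgeR with Benjamini-Hochberg adjustment). Its value was below 0 in 2 of 2 lines by total reads, and its interval in the Huh7 pair with DESeq2 size factors held 0. Hsa-miR-196b had 0.80 ± 0.54 (adjusted p = 0.66, edgeR), hsa-miR-10a 0.30 ± 0.55 (adjusted p = 0.891, edgeR), hsa-miR-196a 0.25 ± 0.50 (adjusted p = 0.893, edgeR) and hsa-miR-615-5p -0.39 ± 1.29 (adjusted p = 0.914, edgeR). With 1 residual degree of freedom and a biological coefficient of variation of 0.5465, no difference between cell states was shown for these miRNAs. Hsa-miR-615-3p had too few counts to enter the fit.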

How the data were processed

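Small RNA libraries of 4 cell populations were used, with 1 library per population. Per the methods of the study, the authors dropped reads that were contaminants, redundant or under 18 nt, aligned the others to NCBI Build 36.1 with SOAP, set other small RNAs aside, searched the remainder against miRBase release 17 and normalized the counts to TPM. The deposited values are whole-number counts per mature miRNA, with no normalization as the values show. Counts were divided by each library's total reads, as the study gives them, to obtain TPM. With 1 library per population, comparisons were made by fold alone (at least 2-fold, at least 10 counts in 1 library), and a count of 0 was set to 3 counts. Shares have Clopper-Pearson intervals and folds exact binomial intervals at 95%. Groups follow the cell line in the labels. The block by line follows the study, which states that each HCSC line was derived from its parent line. Deviations of same-line libraries correlated (r = 0.836). Alternatives were other library sizes, count minimums, pseudocounts, a 4-fold limit (log2 of 2), a Poisson test after Audic and Claverie (the study used a Poisson method) at an adjusted p of 0.01, and other fits of both lines. The edgeR fit of both lines and the calls by fold and Poisson test were tried on simulated data, and the other steps were not. The members and lists were chosen with earlier results of these data known. The named miRNAs were the 6 members, their star arms, hsa-miR-99a, hsa-miR-99b and hsa-miR-100, and the 3 nearest profiles of each member. Positions and sequences come from RefSeq (GRCh38.p14) and GENCODE release 29, matched by name, and no coordinates were converted. Mature sequences matched for 5 of 6 members and 4 of 4 star arms. Python 3.11.15, scipy 1.17.1, R 4.3.3, edgeR 4.0.16 and DESeq2 1.42.0 were used.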

Additional observations from a re-analysis of the deposited data

Results flagged for a closer look

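Hsa-miR-10a is listed because its direction differed between the pairs, with a log2 fold-change of 1.61 for Hep3B-C over Hep3B and -0.35 for Huh7-C over Huh7 by total reads. By miRNA counts its values were -0.16 and 0.17, so both directions turned with the library size. Hsa-miR-99b also differed in direction, with 0.22 and -0.98 by total reads and -1.54 and -0.46 by miRNA counts. Neither difference between the lines was tested, since each pair has 1 library per state.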

How the results depend on the processing

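Of 21 log2 fold-changes of the members, 14 kept their sign under every alternative run and 7 did not. The higher levels of hsa-miR-10a, hsa-miR-10b and hsa-miR-196a in the Huh7 lines kept their direction and stayed past 2-fold under all of the library sizes. In the Hep3B pair, hsa-miR-10a was at -0.16 and hsa-miR-196b at -0.21 with total miRNA counts as library sizes. With miRNA counts, TMM and DESeq2 size factors in turn, 84, 144 and 140 miRNAs were at least 2-fold higher in that pair (17.7%, 30.3% and 29.5% of 475). In the same order 119, 66 and 68 were lower, and 0 members were higher with each of these sizes. In the Huh7 pair the numbers were 66, 64 and 75 higher (15.3%, 14.8% and 17.4% of 431) and 107, 109 and 99 lower. There 1 member, hsa-miR-196b, was higher with each. Between the parental lines, 108 miRNAs were higher with miRNA counts and 174 with DESeq2 size factors. With the 3 sizes 226, 151 and 156 were lower (47.5%, 31.7% and 32.8% of 476), and 1 member, hsa-miR-196b, was lower with miRNA counts. Asking for 10 counts in both libraries left 208 miRNAs higher in the Hep3B pair, 20 higher and 97 lower in the Huh7 pair with 0 members lower, 157 higher and 36 lower between the parental lines with 3 members higher, and 76 higher and 102 lower between the HCSCs. A log2 limit of 2 left 164 higher and 6 lower in the Hep3B pair (34.5% and 1.26% of 475) with 0 members higher and 0 lower. In the Huh7 pair it left 12 higher and 71 lower (2.78% and 16.5% of 431) with 0 members lower. It left 53 lower between the parental lines, and 67 higher and 154 lower between the HCSCs. A minimum of 1 count gave 50 higher in the Huh7 pair. The Poisson test with an adjusted p of 0.01 left the members' calls as they were.

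In the fit of both lines, DESeq2 called 4 miRNAs higher and 1 lower. EdgeR called 0 and 0 with the parental line as a block and 0 and 0 without this block. Without the block by line the log2 fold-changes were 0.16 for hsa-miR-10a, -0.12 for hsa-miR-10b, 0.65 for hsa-miR-196a, 0.82 for hsa-miR-196b and -0.04 for hsa-miR-615-5p. Leaving out 1 library left a state with 1 library, assumed to vary like the others, and no block was used there, so these values also hold the difference between the lines. They ranged from -6.14 to 6.67 for hsa-miR-10a (-0.88 without Hep3B), from -8.76 to 5.95 for hsa-miR-10b (0.81 without Hep3B-C), from -10.57 to 10.88 for hsa-miR-196a (-0.40 without Hep3B) and from -0.93 to 0.90 for hsa-miR-615-5p. Depth limits the MIR615 arms everywhere and hsa-miR-10a and hsa-miR-196a in the Hep3B libraries, which rest on at most 42 counts.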
